A study of Mus musculus with 28 samples.

Results

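The genes described are 7 that make up the major histocompatibility complex (MHC) class II presentation machinery of the mouse, chosen by symbol from the 40021 genes with a value in the deposited table: H2-Aa, H2-Ab1, H2-Eb1, Cd74, H2-DMa, H2-DMb1 and Ciita. Their values come from tdTomatohi DRAQ7- microglia sorted from 28 single retinas of male Cx3cr1CreER:R26-tdTomato (C57BL/6) heterozygotes. In these mice the fractalkine receptor gene drives a tamoxifen-dependent Cre recombinase that switches on the red reporter tdTomato, and all 4 groups carried both alleles and had received topical tamoxifen on the eye at 4 to 5 weeks of age. Endotoxin-induced uveitis (EIU) was induced 4 weeks later with 10 ng lipopolysaccharide (LPS), injected into the vitreous, and retinas were taken from 10 naïve eyes, 6 eyes at 4 h, 5 eyes at 18 h and 7 eyes at 2 weeks. Experiment 1 gave 6, 3, 4 and 4 of these retinas and experiment 2 gave 4, 3, 1 and 3. Each retina was counted as 1 replicate. The labels do not tie a left eye to a right eye of the same mouse, so p-values measure the spread between retinas.

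MHC class II molecules are pairs of an alpha and a beta chain that display peptides from endocytosed proteins to CD4+ T cells. The invariant chain, encoded by Cd74, occupies the groove during assembly and guides the complex to endosomes, where the peptide exchange factor H2-DM (H2-DMa with H2-DMb1 or H2-DMb2) replaces its last fragment with peptide. Transcription of these genes depends on the coactivator Ciita, which is recruited to promoters by factors that bind a conserved upstream module, and class II is known as a marker of activated microglia and of macrophages at the borders of the nervous system.

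Values are RPKM, a read count scaled to transcript length and library size, and were compared as log2(RPKM + 1), on which a fold change of a low gene is understated. A gene was tested if it reached an RPKM of 1 in at least 5 of the 28 retinas, and was called if, in the limma fit of the 4 groups, its Benjamini-Hochberg adjusted p did not exceed 0.05 and it differed by 2-fold or more. Of the 7 genes, 6 were tested and Ciita was not.

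The 28 retinas had from 7510000 to 19700000 alignments and from 6552 to 11825 genes at an RPKM of at least 1. Of the 3360 genes with a median RPKM of at least 10, over 10% lay below an RPKM of 1 in 4 retinas, all of experiment 1: naïve retinas 3 and 4 (460 and 628 genes), 18 h retina 4 (404) and 2-week retina 1 (623). Fold changes without these 4 retinas are given below where their direction or size differed, and single values of these retinas are named. The 12 microglial markers listed, among them P2ry12 and Tmem119, were present at an RPKM of at least 1 in all 28 retinas except for Sall1 in 27, and their summed RPKM ranged from 8422 to 14303 in naïve retinas, 2191 to 7277 at 4 h, 4033 to 6624 at 18 h and 8967 to 14376 at 2 weeks. As these are bulk samples, fewer cells of a type and less RNA per cell cannot be told apart.

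No class II presentation gene was called in any of the 6 comparisons between groups, at 4 h, 18 h or 2 weeks against naïve retinas or between the time points. At 4 h, 4 of the 6 genes tested had a higher mean than in naïve retinas and 2 had a lower one, and 1 of the 6, Cd74, had an unadjusted p under 0.05. Of all 13164 genes tested, 8.08% were called at 4 h in either direction and 20.5% had an unadjusted p under 0.05. A higher mean at 4 h was found in 43.3% of them. At 18 h, 3 genes were higher and 3 lower, with 0 of 6 under an unadjusted p of 0.05. Of all genes, 45.1% were higher, 17.5% had an unadjusted p under 0.05 and 4.69% were called. At 2 weeks, 4 were higher and 2 lower, again with 0 of 6 under an unadjusted p of 0.05. Here 57.4% of all genes were higher, 2.87% had an unadjusted p under 0.05 and 0.0076% were called. Between 18 h and 4 h (background 5.42%), 2 weeks and 18 h (2.65%) and 2 weeks and 4 h (6.09%) the limma fit called 0 of 6 as well, with 0 unadjusted p under 0.05. The share of all genes with an unadjusted p under 0.05 was 16.3%, 13.9% and 17.5% in these comparisons. An ANOVA on untransformed RPKM also called 0 of 6 in each of the 6 comparisons. Across the 6 genes the log2 fold change had a median of 1.25 at 4 h, -0.19 at 18 h and 0.27 at 2 weeks against naïve retinas, beside -0.11, -0.08 and 0.07 over all genes tested. These directions were not stable. Without the 4 retinas of low detection the medians of the 6 genes were -0.073, -0.57 and -0.53, with 2, 2 and 1 genes higher and 4, 4 and 5 lower. By the ratio of mean RPKM, 4, 1 and 1 genes were higher and 2, 5 and 5 lower.

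**Figure D1:**
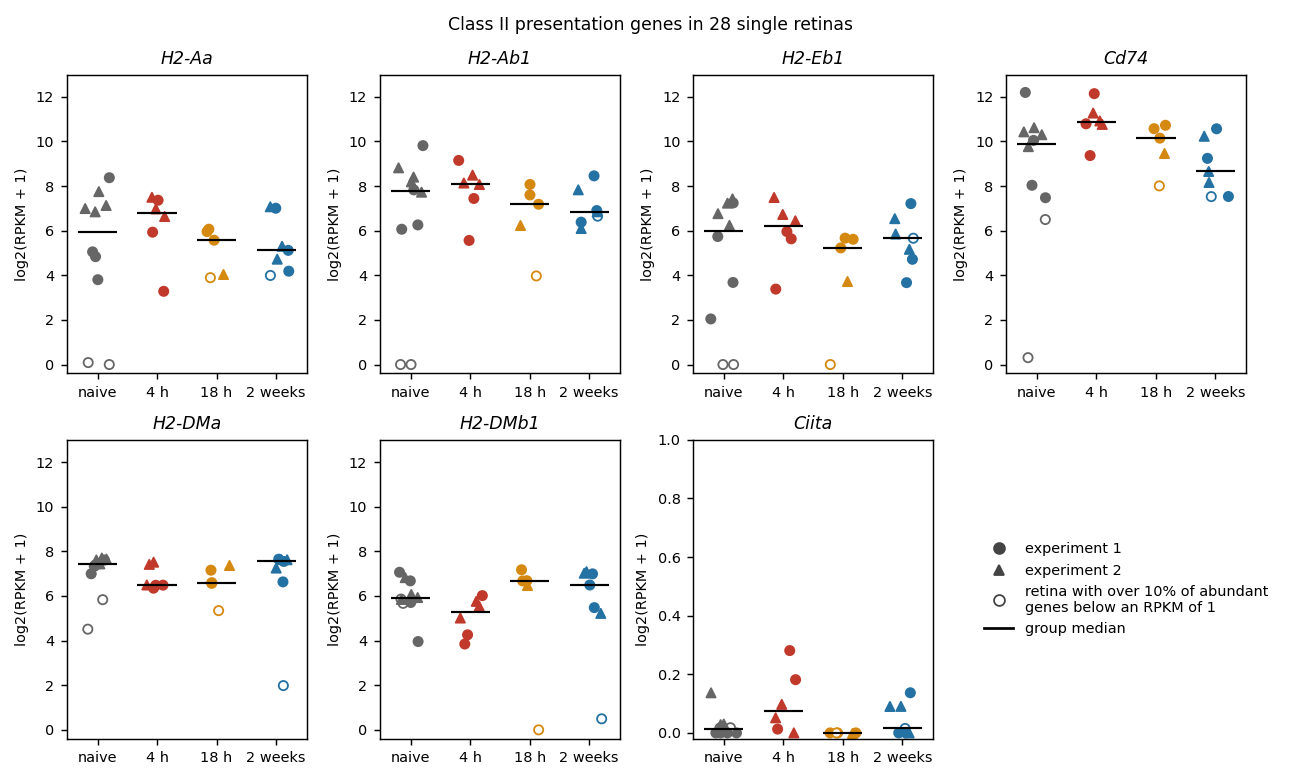
Each point is 1 retina, with log2(RPKM + 1) on the y axis and the group on the x axis (circles, experiment 1; triangles, experiment 2; open symbols, the 4 retinas of low detection; lines, group medians). Naïve retinas span from 0 to the highest values of H2-Aa and H2-Ab1, so every group lies within the naïve range or overlaps it; the Ciita axis ends at 1.

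The alpha chain gene of the I-A molecule, H2-Aa, lies on chromosome 17 at 34282744-34287823 on the reverse strand of GRCm38, between the beta chain genes H2-Ab1 (34257689-34269419, forward strand) and H2-Eb1 (34305867-34316674, forward strand). C57BL/6 mice carry the b haplotype, which makes no I-E alpha chain, so that I-A is their class II molecule. H2-Ea-ps, the I-E alpha chain locus, annotated as a polymorphic pseudogene, was listed at 0 in each of the 28 retinas. None of the 75-base stretches in the annotated transcripts of H2-Aa, H2-Ab1 or H2-Eb1 occurs in a transcript of another gene. H2-Eb1 overlaps the antisense gene Gm20513, and without strand information their reads cannot be told apart where they overlap.

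The promoters of 4 of the 7 genes (H2-Aa, H2-Eb1, H2-DMa and H2-DMb1) were found in the RefSeq table for GRCm38, and those shown here hold the letters of the module through which class II genes are known to be controlled. The X box, bound by the RFX complex, was searched as CTNGNAAC, and the Y box, bound by NF-Y, as GATTGG, both on either strand of the 250 bases before the start site, with letters chosen after the promoters had been read. Of 32851 promoters, 10.9% held the X letters and 14.6% the Y letters. An X box followed on the same strand by a Y box after 20 to 30 bases was found in 14 promoters of 13 genes, or 0.0426%, of which H2-Aa, H2-Eb1, H2-DMb1 and the H2-DO beta chain gene H2-Ob are 4 genes. In the lines below, read 5′ to 3′ on the strand of the gene, capitals mark the X box and then the Y box.
H2-Aa, chr17:34287852-34287922, reverse strand: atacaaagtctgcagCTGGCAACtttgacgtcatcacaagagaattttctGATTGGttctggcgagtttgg
H2-Eb1, chr17:34305758-34305827, forward strand: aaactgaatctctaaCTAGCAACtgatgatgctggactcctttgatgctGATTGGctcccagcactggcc
H2-Ob, chr17:34238800-34238867, forward strand: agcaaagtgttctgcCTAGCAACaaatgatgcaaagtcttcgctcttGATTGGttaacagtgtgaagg
The X box of H2-Aa begins 84 bases before its start site and that of H2-Eb1 94 bases before, with 27 and 26 bases between the boxes. H2-DMb1 has the same arrangement, with its X box 97 bases before the start site and 27 bases between. The listed promoters of H2-DMa hold no X box in these letters.

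H2-Aa ranged from 0 to 331 RPKM in naïve retinas, with a median of 73.1. It ranged from 8.73 to 180 at 4 h (median 112), and was 61.2, 46.6, 66.0, 13.9 and 15.7 in the 5 retinas at 18 h. At 2 weeks it lay between 14.9 and 133 with a median of 33.7. The lowest naïve values, 0 and 0.0626 RPKM, were those of retinas 4 and 3, and the highest, of retina 2, exceeded every EIU retina, so that all 3 EIU groups fell inside the naïve range. The log2 fold change against naïve retinas was 1.19 at 4 h (SE 0.98, limma adjusted p = 0.543), 0.02 at 18 h (SE 1.04, adjusted p = 0.996) and 0.26 at 2 weeks (SE 0.94, adjusted p = 1). The 4 h value was 0.63 without naïve retina 4, and without the 4 retinas of low detection the 3 values were -0.067, -0.93 and -0.78.

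H2-Ab1, the beta chain partner of H2-Aa, was the highest of the chain genes, with naïve values from 0 to 899 RPKM around a median of 218. At 4 h it ranged from 46.3 to 567 (median 274), and at 2 weeks from 67.4 to 351 (median 114). The 18 h retinas had 145, 193, 268, 14.7 and 76.3 RPKM. Naïve retina 2 was again the highest of all, naïve retinas 3 and 4 were at 0, and the 18 h retina with 14.7 was retina 4. H2-Ab1 differed from naïve retinas by a log2 fold change of 1.50 at 4 h (SE 1.09, 95% confidence interval -0.72 to 3.72, adjusted p = 0.477), 0.31 at 18 h (SE 1.15) and 0.71 at 2 weeks (SE 1.04). The 4 h value was 0.80 without naïve retina 3 or 4, and without the 4 retinas H2-Ab1 had log2 fold changes of -0.079, -0.60 and -0.80.

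H2-Eb1, the I-E beta chain gene, reached 171 RPKM in naïve retinas (median 63.4, lowest 0), 179 at 4 h (median 73.6, lowest 9.43) and 147 at 2 weeks (median 49.6, lowest 11.7). At 18 h it was 48.0, 36.5, 49.8, 0 and 12.5 RPKM. The 3 retinas listed at 0 were naïve retinas 3 and 4 and 18 h retina 4, each among the 4 of low detection. The log2 fold changes were 1.30 at 4 h (SE 1.04, adjusted p = 0.529), -0.58 at 18 h (SE 1.11) and 0.91 at 2 weeks (SE 1.00). They were 0.14, -0.73 and -0.27 without the 4 retinas, and the 4 h value was 0.79 without naïve retina 3 or 4. Between 18 h and 4 h the log2 fold change of H2-Eb1 was -1.89 (SE 1.22, adjusted p = 0.497), and -0.87 without the 4 retinas, beside -1.17 and -0.87 for H2-Aa.

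Cd74 was the most abundant of the 7 genes in each group, with a median that ranked 38th in naïve retinas, 24th at 4 h, 40th at 18 h and 82nd at 2 weeks among the genes listed. It lies on chromosome 18 at 60803848-60812652, forward strand. Naïve values ran from 0.239 to 4694 RPKM (median 964), 4 h values from 659 to 4523 (median 1853) and 2-week values from 184 to 1517 (median 402). The 18 h retinas had 1134, 1524, 1692, 257 and 721 RPKM. The 2 highest retinas of the study, naïve retina 2 and 4 h retina 2, came from different groups, while 5 of 7 retinas at 2 weeks lay below all 6 at 4 h.

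Against naïve retinas, Cd74 had the largest difference of any of the genes at 4 h, a log2 fold change of 2.31 (SE 1.03, 95% confidence interval 0.21 to 4.41, unadjusted p = 0.032, limma adjusted p = 0.189). The ratio of the group means was smaller, at 1.92. Naïve retina 4, with 0.239 RPKM, carried much of this value: the log2 fold change was 1.39 without it and 1.02 without the 4 retinas of low detection (SE 0.57, adjusted p = 0.263). At 18 h the log2 fold change was 1.22 (SE 1.09, adjusted p = 0.617) and at 2 weeks 0.28 (SE 0.98, adjusted p = 1), and these were 0.38 and -0.79 without the 4 retinas. From 4 h to 2 weeks it was -2.03 (SE 1.11, adjusted p = 0.352), and -1.81 without the 4 retinas (SE 0.61, adjusted p = 0.0525). This comparison of Cd74 gave -1.97 (SE 0.45) in experiment 2 alone. It did not pass in experiment 1 alone (-2.05, SE 1.72, adjusted p = 0.744). In a limma fit of only the groups compared it passed (adjusted p = 0.0279), and the share of all genes called in that fit is not given here.

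H2-DMa and H2-DMb1 encode the chains of H2-DM, which edits the peptides that class II molecules carry. H2-DMa (chromosome 17, 34119541-34139101, forward strand) had naïve values from 21.8 to 207 RPKM (median 170), 4 h values from 80.6 to 182 (median 88.8) and 2-week values from 2.95 to 200 (median 186). At 18 h it was 142, 95.8, 93.8, 39.6 and 167 RPKM. The 2-week retina with 2.95 was retina 1, and the other 6 lay at 98.2 or above. H2-DMa differed little in mean, by a log2 fold change of -0.22 at 4 h (SE 0.61, adjusted p = 0.885), -0.40 at 18 h (SE 0.65) and -0.39 at 2 weeks (SE 0.58). Without the 4 retinas the 4 h value was -0.68 (SE 0.24, adjusted p = 0.053), and 11.3% of all genes were then called. Its annotated span overlaps 4 genes, 3 of them on the other strand.

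H2-DMb1 (chromosome 17, 34153072-34160230, forward strand) ranged from 14.6 to 133 RPKM in naïve retinas (median 58.5), from 13.4 to 63.7 at 4 h (median 38.4) and from 0.408 to 135 at 2 weeks (median 89.0). The 18 h retinas had 144, 102, 101, 0 and 88.1 RPKM. Thus 4 of the 5 retinas at 18 h lay above all 6 at 4 h, and the exception, retina 4, was at 0. The log2 fold change was -0.89 at 4 h (SE 0.86, adjusted p = 0.614) and -0.56 at 18 h (SE 0.91, adjusted p = 0.814) against naïve retinas, and 0.33 from 4 h to 18 h (SE 1.00, adjusted p = 0.927). Without the 4 retinas of low detection the 18 h value against naïve retinas was 0.74 (adjusted p = 0.397) and the 2-week value 0.37, and the value from 4 h to 18 h was 1.68 (SE 0.51, adjusted p = 0.0321). This last value passed both thresholds, as did 9.43% of all genes in that fit. Of the 75-base stretches of H2-DMb1 transcripts, 15.8% also occur in the paralog H2-DMb2, so that reads could be divided between these genes.

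Ciita, the master coactivator of class II transcription, lies on chromosome 16 at 10480059-10528418 on the forward strand, where it overlaps Dexi on the reverse strand. Its highest value was 0.215 RPKM, in a retina at 4 h, and it did not pass the filter on low values. Ciita was listed at 0 in 4 of 10 naïve retinas, 1 of 6 at 4 h, all 5 at 18 h and 3 of 7 at 2 weeks. Its longest coding transcript has 6007 bases, for which 1 read was worth 0.00845 RPKM in the deepest retina and 0.0222 RPKM in the shallowest, which makes 17.2 reads the equivalent of the highest value. No fold change is given for Ciita.

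**Figure D2:**
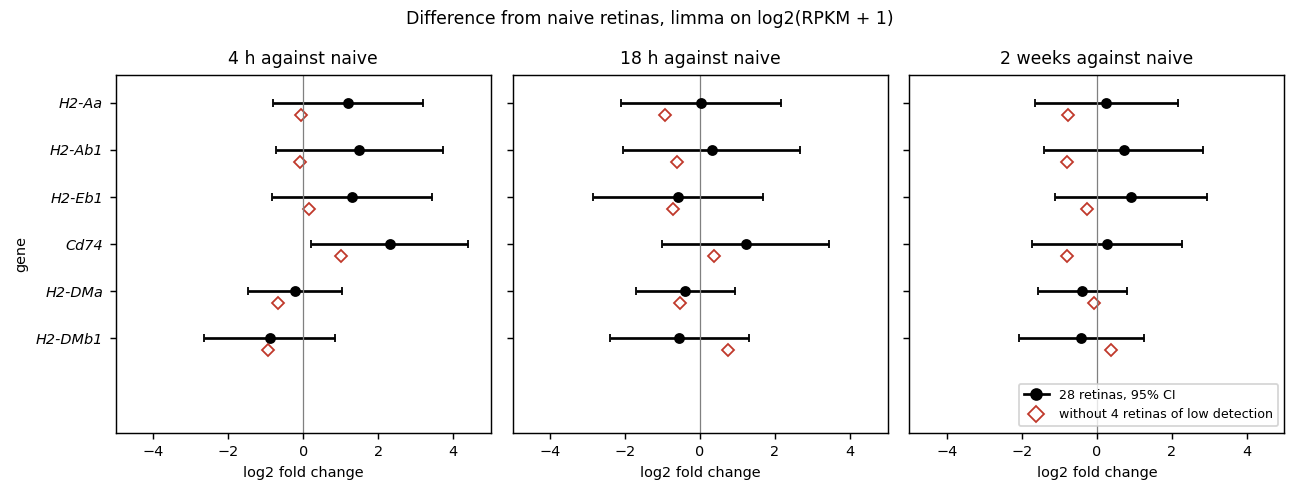
Log2 fold change on the x axis for the 6 genes tested (y axis) in each comparison with naïve retinas. Black points are the limma values over 28 retinas with 95% confidence intervals, and red diamonds are the values without the 4 retinas of low detection. The interval of Cd74 at 4 h (0.21 to 4.41) is the one of 18 that does not hold 0, and the diamonds of H2-Aa and H2-Ab1 at 4 h lie near 0.

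The spread between retinas of 1 group was larger for these genes than for most. The standard error of the 4 h comparison was above the median of all genes, 0.41, for each of the 6, and for H2-Ab1, H2-Eb1 and Cd74 it lay above that of 99.9% of genes. Among naïve retinas this spread was found mainly in experiment 1. Naïve values of H2-Aa ran from 0 to 331 RPKM in the 6 retinas of experiment 1 and from 114 to 215 in the 4 of experiment 2, with SDs of 3.22 and 0.40 on the log2(RPKM + 1) scale. For Cd74 these ranges were 0.239 to 4694 (SD 4.04) and 870 to 1567 (SD 0.36). For H2-DMb1 the SDs were 1.08 and 0.45. At 4 h the SDs in experiments 1 and 2 were 2.07 and 0.43 for H2-Aa and 1.39 and 0.26 for Cd74. H2-DMa went the other way there, with 0.077 and 0.56. At 2 weeks the SDs were closer, at 1.38 and 1.22 for H2-Aa and 1.47 and 1.08 for Cd74. In the 4 naïve retinas of experiment 1 other than retinas 3 and 4, the SDs were 1.98 for H2-Aa, 2.14 for Cd74 and 1.38 for H2-DMb1.

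Within experiment 2 the chain genes had log2 fold changes at 4 h of -0.14 (H2-Aa, SE 0.47), -0.053 (H2-Ab1, SE 0.37) and -0.030 (H2-Eb1, SE 0.38), and within experiment 1 of 1.83 (SE 1.38), 2.39 (SE 1.66) and 1.88 (SE 1.47). Cd74 was 1737, 1936 and 2473 RPKM in the 3 retinas at 4 h of experiment 2, above its 4 naïve retinas, and its log2 fold change was 0.71 (SE 0.42, adjusted p = 0.285) there and 3.34 (SE 1.60, adjusted p = 0.38) in experiment 1. The difference between the experiments was tested with an interaction term, which passed for 0 of 6 genes at 4 h and 0 of 6 at 2 weeks (adjusted p = 1 for each), beside 0.0988% and 0% of all genes. At 2 weeks H2-Aa, H2-Ab1 and H2-Eb1 had negative values in experiment 2, of -1.48 (SE 0.47), -1.36 (SE 0.37) and -1.06 (SE 0.38). In experiment 1 their values were positive, at 1.38 (SE 1.26), 2.10 (SE 1.51) and 2.20 (SE 1.34). None of these passed the test (adjusted p from 0.83 to 1). At 18 h, experiment 2 held 1 retina. The naïve group of experiment 1 includes retinas 3 and 4, of low detection, where the chain genes were at 0 to 0.0626 RPKM. Experiment 1 was not fitted without them, so its positive values cannot be read apart from these retinas. Over both experiments, without the 4 retinas of low detection, H2-Aa, H2-Ab1 and H2-Eb1 were -0.067, -0.079 and 0.14 at 4 h. At 2 weeks they were then -0.78, -0.80 and -0.27.

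H2-Aa, H2-Ab1, H2-Eb1 and Cd74 varied together across retinas, and H2-DMa and H2-DMb1 gave lower correlations with them. Spearman's rho over the 28 retinas was 0.95 between H2-Aa and H2-Ab1, 0.91 between H2-Aa and H2-Eb1, and between 0.77 and 0.88 for Cd74 with each chain gene. Over the 10 naïve retinas alone the pairs among these 4 genes gave 0.95 to 0.98. H2-DMa gave 0.75 to 0.81 with these 4 genes in the naïve retinas, and H2-DMb1 0.32 to 0.54. With the mean rank of the 3 chain genes, H2-DMa gave 0.43, Ciita 0.24 and H2-DMb1 0.056 over 28 retinas. The H2-DMb1 promoter holds the same pair of boxes as those of H2-Aa and H2-Eb1 shown above. These correlations are descriptions over retinas that share groups, experiments and differences in detection.

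**Figure D3:**
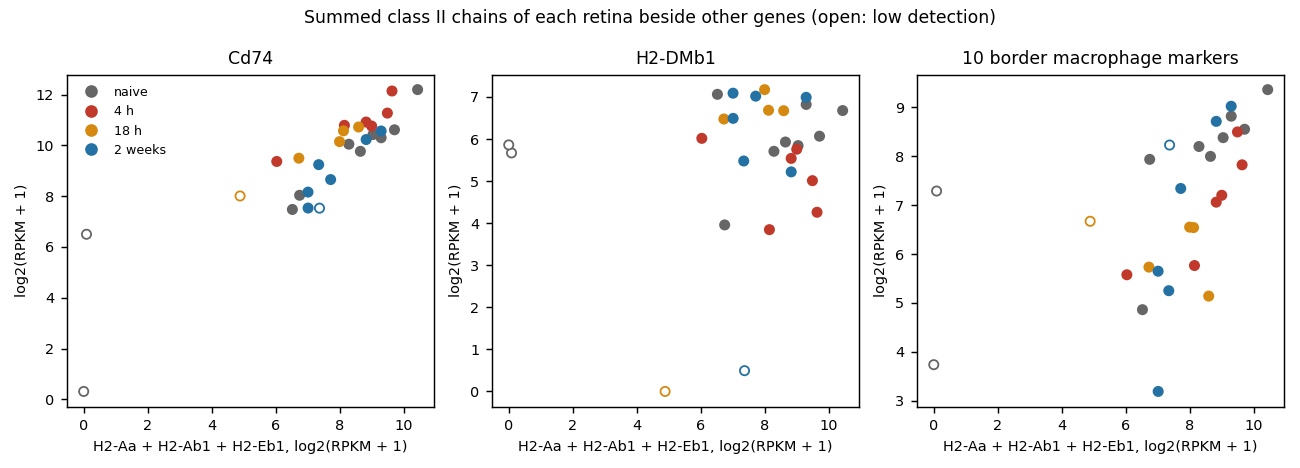
Each point is 1 retina, with the sum of H2-Aa, H2-Ab1 and H2-Eb1 as log2(RPKM + 1) on the x axis and Cd74, H2-DMb1 or the sum of 10 border macrophage markers as log2(RPKM + 1) on the y axes (open, low detection). Cd74 rises with the chains (each pair between 0.77 and 0.88 in rho), H2-DMb1 does not (0.056), and naïve retina 2 is high in both the chains and the border macrophage sum. In the 18 h group the retina with the highest chains, retina 3, has the lowest border macrophage sum.

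Genes other than the 7 whose RPKM was most like the mean rank of the chain genes over 28 retinas were Zwint (rho 0.79), Myl9 (0.78), Pf4 (0.78), Fsbp (0.77), Ccl24 (0.77), Apoe (0.73), Lhfpl3 (0.73), Rims2 (0.73), Cplx4 (0.73) and Spata7 (0.72). None exceeded the rho of Cd74, 0.84. Pf4, a platelet factor chemokine also known as a marker of border macrophages, averaged 172 RPKM in naïve retinas and 18.2 at 18 h, with a maximum of 410 in naïve retina 2. Ccl24, a chemokine of alternatively activated macrophages, averaged 7.21 RPKM in naïve retinas, 14.9 at 4 h and 0.325 at 18 h. Zwint, the most alike, averaged 109, 144 and 111 RPKM in these groups, and Cplx4 averaged 211, 221 and 160. Of the genes named so far, only Pf4 is in the list of border macrophage markers followed below. After subtraction of group means on the log2 scale the most alike were Dab2 (0.87), Cp (0.86), 2610001J05Rik (0.85), Taf13 (0.84) and Dram1 (0.83), beside 0.93 for Cd74. None of these is in that marker list.

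The cells that also express class II were followed by markers. The summed RPKM of 10 border macrophage markers ranged from 12.3 to 658 in naïve retinas, 46.7 to 361 at 4 h, 34.3 to 101 at 18 h and 8.13 to 520 at 2 weeks. Naïve retina 2, with the highest summed chain genes and the highest Cd74, also had the highest marker sum, and naïve retina 4, with the lowest Cd74, had 12.3. Naïve retina 3 goes against this order, with a sum of 156 and chain genes at or near 0. So does the 18 h group, where retina 3 had the lowest marker sum (34.3) and the highest summed chain genes (384). There, retina 4 had the highest marker sum (101) and the lowest chain genes (28.6). By contrast, 2-week retina 2 was the highest of its group in both (520 and 626), and 4 h retina 1 the lowest in both (46.7 and 64.4). Mrc1 and Ms4a7, members of this list, reached 67.7 and 120 RPKM in 2-week retinas 1 and 2, respectively. Of 8 border macrophage markers tested, 0 were called at any of the 3 time points, and the log2 fold changes of the list had medians of -0.81 at 4 h, -1.81 at 18 h and -0.82 at 2 weeks. The part of these cells in the class II values was not tested.

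Markers of other cell types were followed in the same way. Of 11 dendritic cell markers, Cd209a and Clec9a stayed below an RPKM of 1 in all retinas and Flt3 and Zbtb46 reached it in 1 and 3. Batf3 and Fscn1 reached it in all 28 retinas (medians 15.8 and 5.15 RPKM) and Itgax in 16. Fscn1 had its highest value, 230 RPKM, in 4 h retina 1. Ccr7, a chemokine receptor of migrating dendritic cells that activated myeloid cells also express, was called higher at 4 h (log2 fold change 5.51) and at 18 h (2.01), and the summed list ranged from 18.1 to 111 RPKM in naïve retinas and from 46.3 to 333 at 4 h. Among the B cell markers, Ms4a1, Pax5, Cd79a and Blk were below an RPKM of 1 in each retina and Igkc was listed at 0, while Cd79b and Ighm had medians of 29.4 and 59.3 RPKM and were called lower at 4 h (log2 fold change -1.56 and -2.72). The sums of 8 monocyte markers ranged from 0.132 to 3.19 RPKM in naïve retinas and from 0.228 to 49.7 at 18 h. Those of 10 neutrophil markers ranged from 5.60 to 83.0 RPKM in naïve retinas and from 2.86 to 28.8 at 18 h. The naïve maximum was that of Csf3r alone (83.0 RPKM in naïve retina 1), whose medians were 16.9 in naïve retinas and 10.2 at 18 h. S100a8 and S100a9 had naïve medians of 0 and 18 h medians of 0.638 and 0.994, with maxima of 9.24 and 5.15 in 18 h retina 3. Among 9 T and NK cell markers, Nkg7 was called higher at 18 h (log2 fold change 4.36), and the sum ranged from 0 to 0.0544 RPKM in naïve retinas and from 7.76 to 324 at 18 h, with the maximum in retina 4. The summed RPKM of 7 rod photoreceptor markers ranged from 659 to 5468 over the 28 retinas. The part of these cells in the class II values was not tested either.

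Of 6 further class II genes listed, 3 were tested and 1 was called against naïve retinas. H2-Ob and H2-Oa encode H2-DO, an inhibitor of H2-DM. H2-Ob ranged from 2.68 to 28.3 RPKM in naïve retinas (median 7.68), from 2.65 to 9.33 at 4 h (median 8.16), from 0 to 2.47 at 18 h (median 0.705) and from 6.38 to 26.1 at 2 weeks (median 17.3). The 18 h retinas did not overlap those of any other group, and H2-Ob fell by 2.41 on the log2 scale at 18 h against naïve retinas (SE 0.41, limma adjusted p = 0.000297), beside 1.85% of all genes called lower. It also differed between 18 h and 4 h, by -2.03 (adjusted p = 0.00522), and between 2 weeks and 18 h, by 3.13 (adjusted p = 2.81e-05). The call at 18 h against naïve retinas was kept in 12 of 15 other settings and with each of the 28 retinas left out. H2-Oa had medians of 16.9, 29.4, 5.99 and 32.6 RPKM in naïve, 4 h, 18 h and 2-week retinas, with log2 fold changes of 1.22 at 4 h (adjusted p = 0.346) and -1.39 at 18 h (adjusted p = 0.349). H2-DMb2, the paralog of H2-DMb1, had a log2 fold change of -1.69 at 4 h (SE 0.63, adjusted p = 0.0998). H2-Eb2 reached at most 0.0404 RPKM.

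Of 14 factors that act at class II promoters, 13 were tested and 1 was called lower at 4 h and at 18 h, beside 4.39% and 1.85% of all genes. It was the histone acetyltransferase Ep300, which fell by 1.31 at 4 h (adjusted p = 0.00561) and by 1.19 at 18 h (adjusted p = 0.0322) on the log2 scale. The 18 h call was kept in 6 of 14 other settings and was lost without the 4 retinas and without any one of naïve retinas 3 and 6 and 18 h retinas 1, 2 and 3. The median log2 fold change of the list was -0.23 at 4 h and -0.13 at 18 h.

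Interferon gamma is the classical inducer of Ciita. Of 11 genes of its pathway that were tested, 6 were called higher at 4 h and 0 lower (higher calls, 3.68% of all genes): Socs3 (log2 fold change 5.66), Gbp2 (4.90), Irf1 (2.71), Cxcl9 (2.32), Jak2 (2.24) and Socs1 (1.73). Socs1 and Socs3 encode inhibitors of cytokine signalling, Irf1 a transcription factor, and Gbp2 an interferon-induced GTPase. At 18 h, 1 was called, Gbp2 (3.61, adjusted p = 0.000268). Ifng itself was listed at 0 in all 28 retinas. The call of Socs1 was lost without 4 h retina 1. Several of these genes are known to respond to LPS through other cytokines as well.

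Of 11 genes listed for class II processing, which join proteases with protease inhibitors and other genes, 0 were called at 4 h. At 18 h 2 were called, both of them inhibitors, beside 4.69% of all genes. Cst7, an inhibitor of cysteine cathepsins, was higher (log2 fold change 2.31, adjusted p = 0.0073), and Cst3, the abundant inhibitor cystatin C, fell by 1.92 (adjusted p = 3.23e-07). The calls of Cst7 and Cst3 were kept in 13 and 14 of 15 other settings. That of Cst7 was lost in experiment 1 alone, and both were lost in experiment 2 alone, which held 1 retina at 18 h. The median of the list was 0.10 at 4 h and 0.41 at 18 h.

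A further list joined costimulatory molecules, which accompany class II in antigen presentation, with partners of Cd74 and of class II such as Cd44, Mif and Lag3. Of 9 of these genes tested, 7 were called higher at 4 h and 0 lower (higher calls, 3.68% of all genes): Cd83 (log2 fold change 5.81), Cd40 (4.64), Cd274 (3.78), Icosl (3.10), Cd44 (2.50), Cd80 (2.13) and Cd86 (1.91). Cd80 and Cd86 are the ligands of CD28, Cd40 is the receptor of CD40 ligand, Cd83 encodes a protein known to stabilise class II at the cell surface, Cd44 a coreceptor of the Cd74 protein, and Cd274 encodes the inhibitory ligand PD-L1. The same 7 calls stood when the 4 retinas were left out. At 18 h, 2 were called, Cd274 (2.90, adjusted p = 0.00951) and Cd44 (2.08, adjusted p = 0.0262), and the latter was lost without the 4 retinas and without any one of 18 h retinas 1 to 4. At 2 weeks 0 were called.

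Of 15 class I presentation genes tested, 3 were called higher at 4 h, beside 3.68% of all genes, namely H2-Q6 (log2 fold change 3.78), H2-Q7 (2.82) and H2-K1 (1.34). At 18 h, 4 were called higher (higher calls, 2.84% of all genes): H2-Q7 (2.81), H2-Q6 (2.39), H2-T22 (2.19) and B2m (1.37), the light chain of class I molecules. H2-Q6 and H2-Q7 are near-identical genes between which reads may have been divided, and the adjusted p of B2m, 0.0392, passed in 10 of 15 other settings and with 18 of the 28 retinas left out in turn; it was lost without any one of naïve retinas 1 to 6 or of 18 h retinas 1, 2, 3 and 5. The call of H2-T22 was lost without 18 h retina 3. None was called lower at 4 h or 18 h. The median of the 15 was 0.28 at 4 h and 0.75 at 18 h. Both the class I and the costimulation comparisons used the same naïve retinas as the class II comparisons, and whether the lists differ was not tested.

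**Figure D4:**
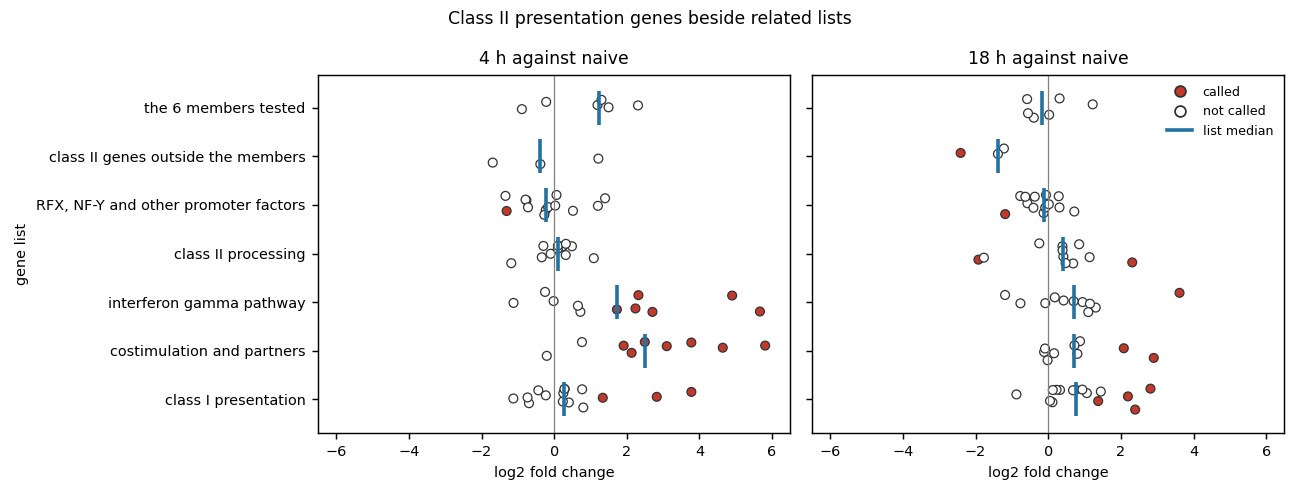
Each point is 1 gene tested, with its log2 fold change against naïve retinas on the x axis and its list on the y axis (red, called; open, not called; blue bars, list medians). At 4 h, 7 of 9 genes of costimulation and partners and 6 of 11 interferon gamma pathway genes were called, beside 0 of the 6 class II presentation genes, whose median was 1.25, and -0.073 without the 4 retinas of low detection.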

How the data were processed

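Reads were trimmed and aligned to mm10 with STAR 2.5.3a by the authors (submitters' processing notes: bcl2fastq 2.20, Partek), assigned to Ensembl transcripts by expectation maximisation, and deposited as RPKM per gene and retina, so that low values and zeros can be products of estimation. The RPKM table also states alignments per retina. The deposited tables of the authors' 4 h and 18 h comparisons (fold changes, p-values) were not used.

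Here log2(RPKM + 1) was tested with limma 3.58.1 (R 4.3.3) in 1 fit of the 4 groups and 28 retinas. The variance prior followed mean expression, and p-values were adjusted by Benjamini-Hochberg over the 13164 genes that reached an RPKM of 1 in 5 or more retinas. The test was checked on simulated data, drawn as independent normal values with 1 SD per gene for all retinas. These data held no retinas of low detection and no difference in spread between experiments. The check therefore does not cover these features of the class II values. The members, lists and markers were chosen with earlier results of these data known. All 7 members were named, as was every list gene called against naïve retinas, plus the 10 and 5 genes most like the chains by rank. Ccr7, Nkg7 and other markers were named after their values were seen. Class II ubiquitin ligases were not analysed here. Positions are those of GENCODE M21 (GRCm38), promoters of RefSeq (GRCm38.p6), and figures were drawn with Python 3.11.15. Alternatives are given in the closing section.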

Additional observations from a re-analysis of the deposited data

Results flagged for a closer look

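In 24 sets of values (6 genes in 4 groups) the lowest and the highest retina were compared with the rest on the log2 scale by Dixon's ratio. For normally distributed values, chance alone exceeds its limit in about 1 of 20 sets. Here 6 values stood apart, each as the lowest of its group. How often the other genes exceed this limit was not computed, so these 6 do not show that the class II genes are unusual in this. Cd74 was 0.239 RPKM in naïve retina 4. H2-Aa was 8.73 RPKM in 4 h retina 1. H2-DMa was 2.95 RPKM in 2-week retina 1. H2-DMb1 was 14.6 RPKM in naïve retina 6, 0 in 18 h retina 4 and 0.408 in 2-week retina 1. Of these 6 values, 4 came from the retinas in which over 10% of abundant genes were below an RPKM of 1, and 2 (4 h retina 1 and naïve retina 6) did not. The part of low detection in these values was not tested.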

How the results depend on the processing

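The count of the 6 class II presentation genes called was recomputed under 15 other settings and with each of the 28 retinas left out. The count with a different change in the 2 experiments was recomputed where the setting allowed it. Together these 8 results gave 334 values, of which 328 were 0. Most of them come from fits with 1 retina left out, which share nearly all retinas, so they are not independent. The values above 0 were all counts of genes called. With the replicate block the count called was 1 at 4 h against naïve retinas (Cd74, 3.36, limma adjusted p = 0.0213). Same-numbered retinas did not pair (mean correlation of their deviations 0.048, from -0.33 to 0.70), and 7 of 20 matched their own number best. In experiment 2 alone, with 1 retina at 18 h assumed to vary like the other groups, it was 1 at 18 h against naïve retinas (H2-Eb1, -3.16), 2 at 18 h against 4 h (H2-Aa, -2.98, and H2-Eb1, -3.13) and 1 at 2 weeks against 4 h (Cd74, -1.97). A fit of the groups compared gave 1 at 2 weeks against 4 h (Cd74, -2.03, adjusted p = 0.0279). Without the 4 retinas of low detection, a setting chosen after seeing the data, it was 1 at 18 h against 4 h (H2-DMb1, 1.68), beside 9.43% of all genes. With single retinas left out the counts were from 0 to 0. The share of all genes called with the replicate block, in experiment 2 alone and in the fit of the groups compared is not given here. The counts from these fits therefore cannot be set against a background. The causes were not tested.

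Log2 fold changes of the 6 genes, none of them called, changed sign as follows. In experiment 1 alone, H2-Eb1 was 1.01 at 18 h against naïve retinas and 0.32 at 2 weeks against 4 h, and at 2 weeks against 18 h H2-Aa was -0.30, H2-DMa -0.46 and H2-DMb1 -0.27. In experiment 2 alone, H2-Aa, H2-Ab1 and H2-Eb1 were -0.14, -0.053 and -0.030 at 4 h and -1.48, -1.36 and -1.06 at 2 weeks, where Cd74 was -1.26 and H2-DMb1 0.28. At 18 h H2-Aa was -3.12, H2-Ab1 -2.01, Cd74 -0.78 and H2-DMb1 0.31 there, H2-DMa was 0.25 at 18 h and 0.36 at 2 weeks against 4 h, and H2-DMb1 was -0.034 at 2 weeks against 18 h. Jak1, of the interferon gamma pathway list, was called lower at 18 h against 4 h (-1.49, limma adjusted p = 0.0197) and was 0.032 in experiment 2 alone. With experiment as a covariate, H2-DMa was 0.14 at 18 h against 4 h, and at 2 weeks against 18 h H2-Aa was -0.15, H2-DMa -0.24 and H2-DMb1 -0.064. A pseudocount of 0.1 gave H2-DMb1 -0.30 at 18 h against 4 h and H2-DMa -0.039 at 2 weeks against 18 h. A pseudocount of 10 gave H2-Aa -0.43 and H2-Ab1 -0.21 at 18 h, Cd74 -0.022 and H2-Aa -0.23 at 2 weeks, H2-DMb1 -0.064 at 2 weeks against 18 h and H2-DMa 0.021 at 2 weeks against 4 h. Quantile normalisation gave H2-Aa -0.26 at 18 h. Rescaling to equal summed RPKM, which shifted the all-gene median at 18 h to -0.26 from -0.08, gave H2-Aa -0.27 at 18 h against naïve retinas. It also gave H2-DMa 0.079 at 2 weeks against 4 h. The replicate block gave H2-DMa 0.15 at 4 h and 0.14 at 18 h, H2-Eb1 0.69 at 18 h, and H2-Aa -0.26 and H2-DMa -0.29 at 2 weeks against 18 h. Untransformed RPKM gave Cd74 -0.092, H2-Aa -1.29, H2-Ab1 -0.87 and H2-DMb1 0.31 at 18 h, Cd74 -0.86, H2-Aa -0.84, H2-Ab1 -0.76, H2-DMb1 0.19 and H2-Eb1 -0.27 at 2 weeks, H2-DMb1 -0.12 at 2 weeks against 18 h and H2-DMa 0.34 at 2 weeks against 4 h. Without the 4 retinas, H2-Aa was -0.067 and H2-Ab1 -0.079 at 4 h, H2-Aa -0.93, H2-Ab1 -0.60 and H2-DMb1 0.74 at 18 h, and Cd74 -0.79, H2-Aa -0.78, H2-Ab1 -0.80, H2-DMb1 0.37 and H2-Eb1 -0.27 at 2 weeks. H2-DMa was then 0.14 at 18 h and 0.60 at 2 weeks against 4 h, and H2-Ab1 was -0.20 and H2-DMb1 -0.37 at 2 weeks against 18 h.

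With 1 retina left out at a time, values at 18 h against naïve retinas ranged from -0.54 to 0.39 (H2-Aa), -0.39 to 0.97 (H2-Ab1), -1.10 to 0.43 (H2-Eb1) and -1.0 to 0.79 (H2-DMb1). At 2 weeks they ranged from -0.31 to 0.62 (H2-Aa), -0.64 to 0.68 (Cd74), -0.67 to 0.38 (H2-DMa) and -0.68 to 0.42 (H2-DMb1). At 18 h against 4 h the ranges were -0.37 to 0.14 (H2-DMa) and -0.11 to 1.68 (H2-DMb1), and at 2 weeks against 4 h -0.34 to 0.60 (H2-DMa). At 2 weeks against 18 h they were -0.073 to 0.47 (H2-Aa), -0.26 to 0.77 (H2-Ab1), -0.31 to 0.78 (H2-DMa) and -1.21 to 0.98 (H2-DMb1). At the smallest depth 1 read was worth 0.118 RPKM for H2-Aa and 0.0222 RPKM for Ciita. The part of depth in the low values was not tested.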

Other observations

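The ratio of Cd74 to the summed RPKM of H2-Aa, H2-Ab1 and H2-Eb1 in the same retina, computed after the values had been seen and given without a test, ranged from 1.88 to 3.40 in the 8 naïve retinas whose chain genes summed to at least 1 RPKM (median 2.32). It ranged from 3.41 to 10.2 at 4 h (6 retinas, median 5.00), from 4.41 to 8.98 at 18 h (5 retinas, median 5.51) and from 1.12 to 3.75 at 2 weeks (7 retinas, median 2.23). The 4 h and 18 h retinas did not overlap with these 8 naïve retinas, although the lowest at 4 h and the highest naïve value are nearly equal. How many other gene ratios separate these groups as fully was not counted. In naïve retina 3 the chain genes summed to 0.0626 RPKM and Cd74 was 89.5 RPKM, a ratio of 1429, above that of every EIU retina. In naïve retina 4 the chain genes were listed at 0, so that it has no finite ratio. The separation therefore holds only with naïve retinas 3 and 4 left out. A ratio within a retina shows unequal levels and does not say which of its terms differed. The ratio of H2-Aa to H2-Ab1 had medians of 0.39, 0.36, 0.25 and 0.36 in naïve, 4 h, 18 h and 2-week retinas.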
